A study of Rattus norvegicus with 36 samples.

Results

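Transthyretin (Ttr) and a pair of further genes that the choroid plexus expresses, insulin-like growth factor 2 (Igf2) and aquaporin 1 (Aqp1), were followed in the nucleus accumbens of rats after cocaine place conditioning. They are 3 of the 32402 genes listed in the count files and were taken by their Ensembl identifiers, ENSRNOG00000016275 for Ttr, ENSRNOG00000020369 for Igf2 and ENSRNOG00000011648 for Aqp1. Ttr was selected on its CPM values in these rats, which were high in animals that received cocaine without expressing a preference. Igf2 and Aqp1 were set beside it to see whether other choroid plexus genes were high in the same rats. All 3 were chosen with earlier results of these data known. The names were assigned to these identifiers when the set was drawn up, and neither the count files nor the reference table used here pairs them, so the assignment was not checked.

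The series sequenced polyadenylated RNA of 9 Sprague-Dawley rats, 8 weeks old, in 3 groups of 3. Saline rats received physiological serum at every injection. CPPE rats received 4 daily cocaine injections, a withdrawal of 15 days and a last cocaine injection of 5 mg/kg, and expressed a conditioned place preference, a learned choice of the drug-paired compartment. nCPPE rats received the same cocaine and did not express it. In all groups preference was measured for 18 min straight after the last injection, and the series text adds an extinction phase of 12 days. The labels call CPPE rats dependent and nCPPE rats non-dependent. The sources used here give neither the criterion that parted them nor the sex of the rats. The tissue is labelled nucleus accumbens throughout, while the extraction protocol names bilateral accumbens and caudate putamen together. The labels do not describe how close to the lateral ventricle the samples were taken.

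The choroid plexus is a folded epithelium that hangs in the brain ventricles and makes cerebrospinal fluid. Its epithelial cells are the main site of Ttr transcription in the brain, and they secrete transthyretin, a carrier of thyroid hormone and of the retinol-binding protein. Aqp1 forms a water channel in the ventricle-facing membrane of the same cells. Igf2 is a growth factor that adult brain makes chiefly in the choroid plexus, its stroma and the leptomeninges. In dissected forebrain tissue all of these transcripts are therefore read as markers of ventricle or brain-lining tissue, although vessels and other cells can also express Aqp1 and Igf2.

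Both Ttr and Aqp1 had every nCPPE rat above all other rats, and for these 2 genes the RefSeq sequence of 250 bases upstream of a transcript start is shown for context (build GRCr8, matched by symbol, 1 entry each). Capitals mark matches to TATAAA, the TATA box. It is one of 4 motifs searched on both strands, beside GGATTA as the core of OTX sites, TGTTTAC as a forkhead core, and CCAAT, the CCAAT box.
Ttr, chr18:12218508-12218757, plus strand: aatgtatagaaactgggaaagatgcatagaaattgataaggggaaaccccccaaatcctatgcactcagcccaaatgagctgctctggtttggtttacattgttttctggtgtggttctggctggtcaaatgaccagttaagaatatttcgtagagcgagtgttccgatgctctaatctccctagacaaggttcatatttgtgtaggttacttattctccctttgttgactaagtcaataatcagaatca
Aqp1, chr4:85812534-85812783, plus strand: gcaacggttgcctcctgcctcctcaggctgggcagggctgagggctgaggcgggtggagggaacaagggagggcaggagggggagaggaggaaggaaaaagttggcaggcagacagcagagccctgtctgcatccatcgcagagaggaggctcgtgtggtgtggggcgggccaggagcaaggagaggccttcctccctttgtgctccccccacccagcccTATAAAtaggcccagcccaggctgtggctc
The Aqp1 window held TATAAA once, beginning 30 bases before the start, and 40.4% of the Ttr window and 65.2% of the Aqp1 window were G or C. TATAAA was present in 12.9% of the 33469 promoter entries, GGATTA in 6.34%, TGTTTAC in 3.21% and CCAAT in 34.0%. The Ttr window held none of the 4 motifs, and the Aqp1 window held no other. The Ttr window lies inside the listed span of its gene (12216684 to 12225972), while the Aqp1 window ends beside its gene's listed start (85812784). Bases near other Ttr starts, or past the end of the window, were not searched. The lack of a match therefore covers these 250 bases only.

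Counts summed over the 4 technical replicates of each rat came to between 27724289 and 39067715. Levels are CPM, counts scaled to a common library total, with library sizes adjusted by TMM (trimmed mean of M values). One library, Saline 2, stood apart over much of the transcriptome, and the biological coefficient of variation was 26.2% over all rats and 11.8% without it. The main differences that this rat touches are given with and without it. The technical replicates of a rat spread about as counting noise predicts for these genes, with a median chi-square of 0.840 per degree of freedom over 25 sets of 4. The highest, 3.91, was Igf2 in nCPPE 3, where the 4 technical replicates held 296 to 390 counts. Counting intervals are exact Poisson intervals at 95% and cover counting error only.

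Ttr set the nCPPE rats apart from every other animal. It had 933 counts in nCPPE 1, 668 in nCPPE 2 and 480 in nCPPE 3, which is 27.8, 21.4 and 15.3 CPM. CPPE 1, 2 and 3 had 143, 17 and 83 counts, or 4.61, 0.431 and 2.70 CPM. Saline 1 had 73 counts (2.53 CPM), and Saline 2 and Saline 3 had none. For these 0 counts a floor of 3 counts was used, or 0.108 CPM in either rat. Their exact Poisson intervals reach slightly higher, to 0.132 CPM in Saline 2 and 0.133 CPM in Saline 3. The nCPPE group did not overlap with the others, and its lowest rat was 3.32-fold above the highest of the other 6. CPPE and Saline rats overlapped, since Saline 1 lay above CPPE 2 and close to CPPE 3.

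The mean Ttr level was 21.5 ± 6.25 CPM in nCPPE rats, 2.58 ± 2.09 CPM in CPPE rats and 0.842 ± 1.46 CPM in the Saline group (SD, n = 3 each). The nCPPE mean was 8.33-fold that of CPPE rats and 25.5-fold that of Saline rats, or 17.0-fold without Saline 2. The Saline mean rested on Saline 1 alone. These differences are a description and were not tested, since Ttr was chosen for them. On the log2 scale of the fit over all genes, the difference was 4.65 ± 1.34 (SE) for nCPPE against Saline, 3.07 ± 1.21 for nCPPE against CPPE and 1.59 ± 1.27 for CPPE against Saline. For nCPPE against CPPE, none of the 15555 genes tested had a higher log2 difference than Ttr.

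**Figure D1:**
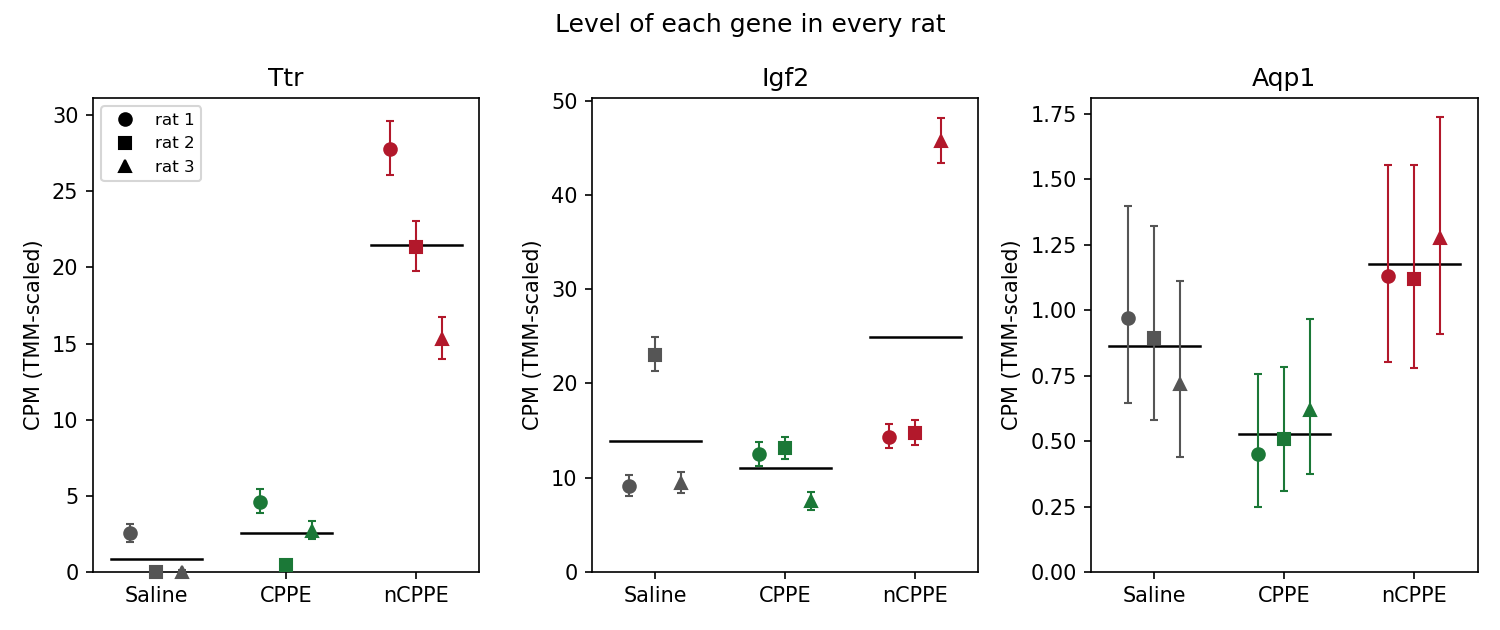
Level of Ttr, Igf2 and Aqp1 in each of the 9 rats (CPM, linear axes from 0), with symbols for rat number, bars for 95% Poisson counting intervals and a black line for each group mean. Ttr lies at 15.3 to 27.8 CPM in nCPPE rats and at no more than 4.61 CPM elsewhere, Igf2 is led by nCPPE 3 and Saline 2, and Aqp1 lies at 0.451 to 1.28 CPM with the 3 groups at separate heights.

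For nCPPE against Saline 1 gene exceeded Ttr in log2 difference, ENSRNOG00000019050, named after its values were seen. It stood at 5.47, from levels of at most 1.22 CPM that were near 0 in nCPPE 2 (0.0320 CPM) as well as in all Saline rats. The spread of Ttr between rats was also extreme. Its biological coefficient of variation within groups was 128%, above that of 99.97% of tested genes, and 89.0% without Saline 2. Within CPPE rats the highest level was 10.7-fold the lowest, against 1.82-fold within nCPPE rats. The Poisson intervals of the nCPPE rats did not overlap (26.0 to 29.6, 19.8 to 23.0 and 14.0 to 16.7 CPM), so these rats differed from each other by more than counting error.

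Aqp1 was also highest in all nCPPE rats, with a smaller fold difference than Ttr. Its counts were 38, 35 and 40 in nCPPE 1, 2 and 3, or 1.13, 1.12 and 1.28 CPM. The Saline rats had 28, 25 and 20 counts, or 0.969, 0.896 and 0.720 CPM. CPPE rats were lowest, with 14, 20 and 19 counts, or 0.451, 0.508 and 0.619 CPM. No group overlapped with another in CPM, and the order was nCPPE, then Saline, then CPPE. Saline 3 and CPPE 2 both had 20 counts and differed in CPM by library size alone. The single-rat Poisson intervals of neighbouring groups did overlap, as with 0.801 to 1.55 CPM in nCPPE 1 and 0.644 to 1.40 CPM in Saline 1.

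Group means of Aqp1 were 1.18 ± 0.0867 CPM in nCPPE, 0.862 ± 0.128 CPM in Saline and 0.526 ± 0.0855 CPM in CPPE rats (SD, n = 3 each). Within each group, every rat lay inside the Poisson intervals of the others. These small SDs therefore do not show that rats of a group were alike beyond counting error. The nCPPE mean was 2.24-fold the CPPE mean and 1.36-fold the Saline mean, and the Saline mean was 1.64-fold the CPPE mean. In edgeR's quasi-likelihood test over all genes, nCPPE against CPPE gave a log2 difference of 1.16 ± 0.25 (SE, 95% interval 0.59 to 1.73), with an unadjusted p of 0.00136 and an adjusted p of 1.00, and 3 of 3 nCPPE rats lay above every CPPE rat. Only 1 of the 15555 genes had a smaller p in that comparison. This rank is a description, since Aqp1 was chosen with earlier results of these data known. For nCPPE against Saline the log2 difference was 0.45 ± 0.24 (interval -0.11 to 1.00, edgeR adjusted p = 0.937). For CPPE against Saline it was -0.71 ± 0.25 (interval -1.29 to -0.13), with an edgeR unadjusted p of 0.0217 and an adjusted p of 0.882. Aqp1 therefore did not pass the test in any comparison. Without Saline 2 the edgeR log2 differences were 1.16, 0.47 and -0.68 in the same order, with adjusted p of 0.971, 0.806 and 0.825.

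Over all genes tested, edgeR called 0 of 15555 genes (0%) for nCPPE against Saline, 0 (0%) for nCPPE against CPPE and 0 (0%) for CPPE against Saline. At an unadjusted p below 0.05 it found 179 (1.15%), 84 (0.54%) and 139 (0.894%). The groups share 1 estimate of spread, which includes Saline 2. Without that rat edgeR also called 0 genes, with 964, 556 and 929 of 15750 at an unadjusted p below 0.05. With only the 2 groups compared in the fit, nCPPE against CPPE had 433 such genes of 15392. The smallest edgeR adjusted p there was 0.051, again with 0 calls. The absence of calls is therefore not evidence that no gene differed. DESeq2 called 1, 1 and 0 genes, none of them Ttr, Igf2 or Aqp1. Groups without overlap were counted as well. All nCPPE rats lay above all Saline rats in 2.12% of tested genes, and 2 of the set of 3, Ttr and Aqp1, were among them. All nCPPE rats lay above all CPPE rats in 4.8% of genes, a property of Ttr, Igf2 and Aqp1 alike. All CPPE rats lay below all Saline rats in 2.8% of genes, Aqp1 among them, and above all of them in 2.93%, none of the 3 members among these. Since these genes were chosen with results of these data known, their counts beside those shares are a description.

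Ttr and Aqp1 were 2 of 71 genes (0.456%) in which every nCPPE rat exceeded the 6 other rats. Ttr was chosen for its high nCPPE values, so its place in this count and in the gaps below is a description. Across these 71 genes the lowest nCPPE rat was a median of 1.03-fold above the highest other rat, against 3.32-fold for Ttr and 1.16-fold for Aqp1. A gap of over 3-fold was found in 2 genes (0.0129%). The other one, ENSRNOG00000039107, named after its values were seen, had 29, 22 and 15 counts in nCPPE 1, 2 and 3 and at most 5 counts in any other rat. Its order within nCPPE rats was that of Ttr, though counts this low leave that order uncertain. The complete order of nCPPE above Saline above CPPE without overlap was also found in 2 genes (0.0129%), Aqp1 and ENSRNOG00000007795, the latter likewise named after its values were seen. It had 13 to 17 counts in nCPPE, 8 to 11 in Saline and 7 to 8 in CPPE rats.

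**Figure D2:**
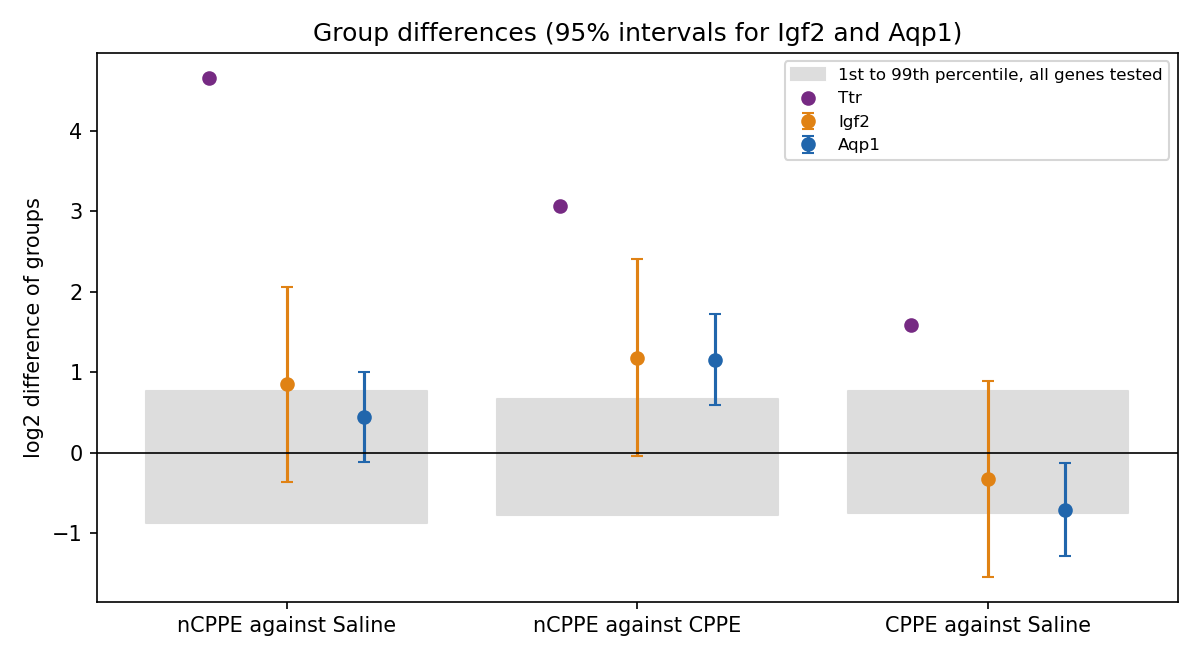
Log2 difference between groups of each gene in edgeR's fit over all rats, in the 3 comparisons, with 95% intervals for Igf2 and Aqp1. Grey bands hold the 1st to the 99th percentile of the 15555 genes tested. Ttr is at 4.65, 3.07 and 1.59 (a description, not a test), above the band each time. Aqp1 is above it for nCPPE against CPPE (1.16) and inside it for nCPPE against Saline (0.45). Igf2 is above it in both of these (1.18 and 0.85), with intervals that include 0. For CPPE against Saline, Igf2 (-0.33) and Aqp1 (-0.71) are inside the band.

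Igf2 followed neither of these orders. It had 482, 461 and 1435 counts in nCPPE 1, 2 and 3, or 14.4, 14.7 and 45.8 CPM. CPPE 1, 2 and 3 had 388, 516 and 230 counts, or 12.5, 13.1 and 7.49 CPM. The Saline rats had 263, 643 and 262 counts, or 9.10, 23.0 and 9.43 CPM. The highest levels were thus in nCPPE 3, at 1.99-fold the next rat, and in Saline 2, the library that stood apart. Every nCPPE rat was above every CPPE rat, by 1.10-fold at the narrowest point, while Saline 2 lay above nCPPE 1 and nCPPE 2. The Poisson intervals of nCPPE 1 (13.1 to 15.7 CPM) and CPPE 2 (12.0 to 14.3 CPM) overlapped.

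The Igf2 means were 25.0 ± 18.0 CPM in nCPPE rats, 11.0 ± 3.08 CPM in CPPE rats and 13.9 ± 7.95 CPM in the Saline group (SD, n = 3 each), the last being 9.27 CPM without Saline 2. The log2 difference in edgeR's fit was 1.18 ± 0.54 (SE, interval -0.05 to 2.40) for nCPPE against CPPE, with an adjusted p of 1.00. It was 0.85 ± 0.54 (interval -0.37 to 2.06) for nCPPE against Saline, with an edgeR adjusted p of 0.937, and -0.33 ± 0.54 (interval -1.54 to 0.89) for CPPE against Saline, with an edgeR adjusted p of 0.892. None passed the test, and each interval includes a 2-fold difference in at least 1 direction. A single rat decided the size of both nCPPE values. Without nCPPE 3 the nCPPE mean was 14.6 CPM, and the log2 differences were 0.40 against CPPE and 0.07 against Saline rats, with edgeR adjusted p of 1.00 and 0.990. Without Saline 2 the difference from Saline rats was 1.43 (edgeR adjusted p = 0.787), from 2.69-fold higher mean CPM, and that of CPPE against Saline turned from -0.33 to 0.26 (edgeR adjusted p = 0.946).

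**Figure D3:**
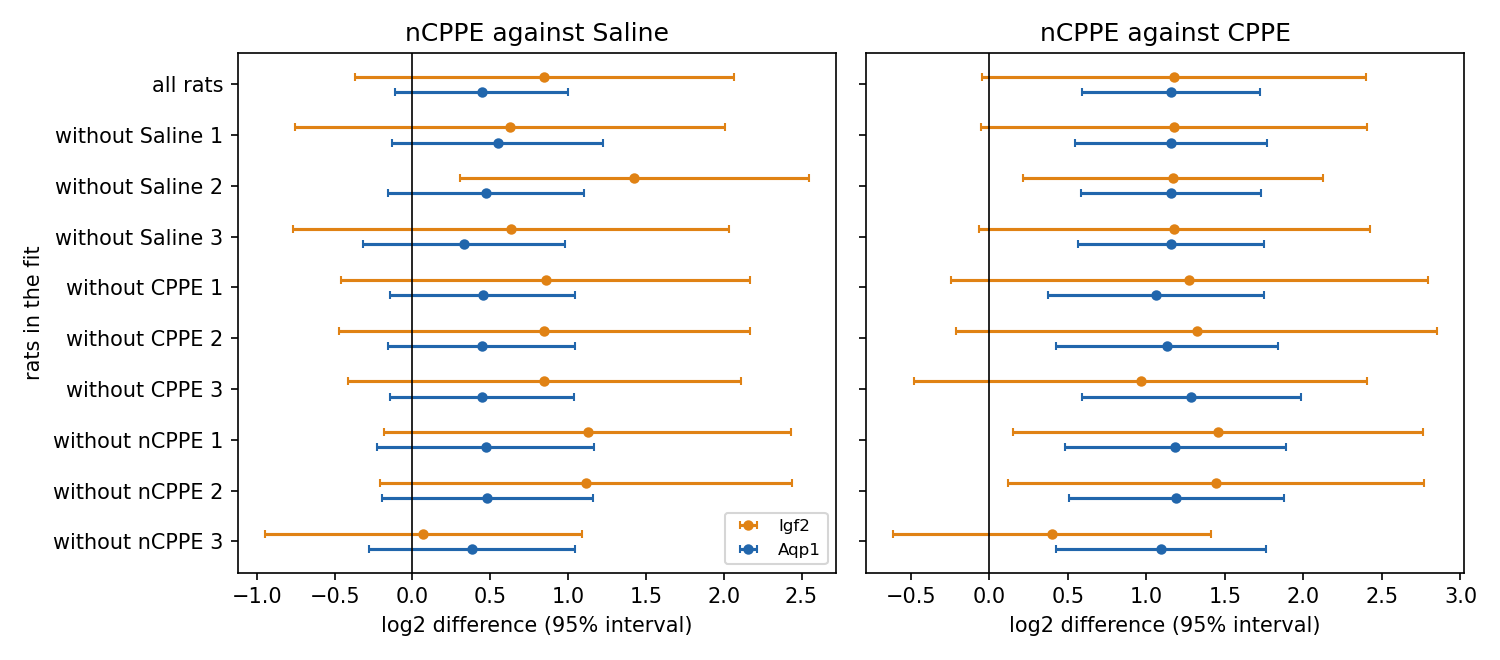
Log2 difference of Igf2 and Aqp1 with 95% intervals for nCPPE against Saline (left) and nCPPE against CPPE (right), with all rats and with each rat left out in turn. Igf2 drops to 0.07 and 0.40 when nCPPE 3 is left out, whereas Aqp1 keeps within 0.33 to 0.55 on the left and 1.06 to 1.28 on the right.

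Among the genes tested, the members differed widely in their spread between rats. Ttr averaged 8.30 CPM over the 9 rats, Igf2 16.6 CPM and Aqp1 0.854 CPM, each on a scale of reads per library and not per gene length, so these levels are not compared between genes. All 3 genes passed the filter on low counts. The biological coefficient of variation was 45.3% for Igf2, above that of 93.1% of tested genes, and 17.8% for Aqp1, above that of 28.0%. Without Saline 2 it was 35.1% and 17.3%. Within the log2 differences of all genes tested, Aqp1 stood at the 99.8th percentile for nCPPE against CPPE, the 95.9th for nCPPE against Saline and at percentile 1.31 for CPPE against Saline. The corresponding percentiles of Igf2 were 99.8, 99.3 and 14.1. The medians over all genes were 0.0011, -0.0072 and -0.012 on the log2 scale.

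The order of rats inside each group differed from gene to gene. Among nCPPE rats Ttr was highest in rat 1 and lowest in rat 3, while Igf2 was lowest in rat 1 and highest by far in rat 3. Aqp1 in the same rats spanned 1.12 to 1.28 CPM, a range inside their counting intervals. Among CPPE rats Ttr was lowest in rat 2, where Igf2 was highest. Among Saline rats Ttr was detected in rat 1 alone, where Aqp1 was also highest (0.969 CPM against 0.896 and 0.720 CPM, with overlapping counting intervals). Ttr was not detected in Saline 2, where Igf2 was highest, and Igf2 in Saline 1 and Saline 3 (263 and 262 counts) had overlapping counting intervals.

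Counts of the genes were also set against each other within each rat, with exact Clopper-Pearson intervals, since such ratios do not depend on library scaling. There were 24.6 Ttr counts for each Aqp1 count in nCPPE 1 (interval 17.8 to 34.9), 19.1 in nCPPE 2 (13.6 to 27.6) and 12.0 in nCPPE 3 (8.68 to 17.0). The ratio was 10.2 in CPPE 1 (5.89 to 19.2), 0.850 in CPPE 2 (0.418 to 1.71) and 4.37 in CPPE 3 (2.63 to 7.62). It was 2.61 in Saline 1 (1.67 to 4.19) and 0 in Saline 2 and Saline 3, with upper bounds of 0.159 and 0.203. Ttr and Aqp1 thus did not keep 1 ratio across rats. Saline 2 and Saline 3 held 25 and 20 Aqp1 counts with 0 Ttr counts. Where part of the Aqp1 counts comes without Ttr, the ratio changes with the Ttr level itself. The ratios are therefore a description and do not show where either transcript came from. CPPE 1 reached the interval of nCPPE 3, with 14 Aqp1 counts, the lowest of all rats, and 143 Ttr counts, the highest outside the nCPPE group.

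Ttr per Igf2 count was 1.94 in nCPPE 1 (interval 1.73 to 2.17), 1.45 in nCPPE 2 (1.28 to 1.64) and 0.334 in nCPPE 3 (0.301 to 0.371). The last value was in the range of CPPE 1 (0.369), CPPE 3 (0.361) and Saline 1 (0.278), and CPPE 2 was at 0.0329. The ratio therefore differed 5.79-fold within the nCPPE group alone. Igf2 too was counted in Saline 2 and Saline 3 (643 and 262 counts) with 0 Ttr counts, so the same limit holds. Igf2 per Aqp1 count ran from 9.39 in Saline 1 to 35.9 in nCPPE 3, with 12.7 and 13.2 in nCPPE 1 and nCPPE 2, 25.7 in Saline 2 and 27.7 in CPPE 1.

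The nCPPE mean was 12.6-fold the mean of the other 6 rats for Ttr, 2.01-fold for Igf2 and 1.69-fold for Aqp1. Igf2 and Aqp1 were also counted in Saline 2 and Saline 3, where Ttr was not detected. The folds of the 3 genes therefore do not start from a like base. In bulk RNA more cells of a type and more RNA per cell cannot be told apart. The part that choroid plexus tissue in the samples had in the high Ttr of nCPPE rats was not tested, because the identifiers could not be paired with the symbols of further epithelial, stromal or ependymal markers.

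**Figure D4:**
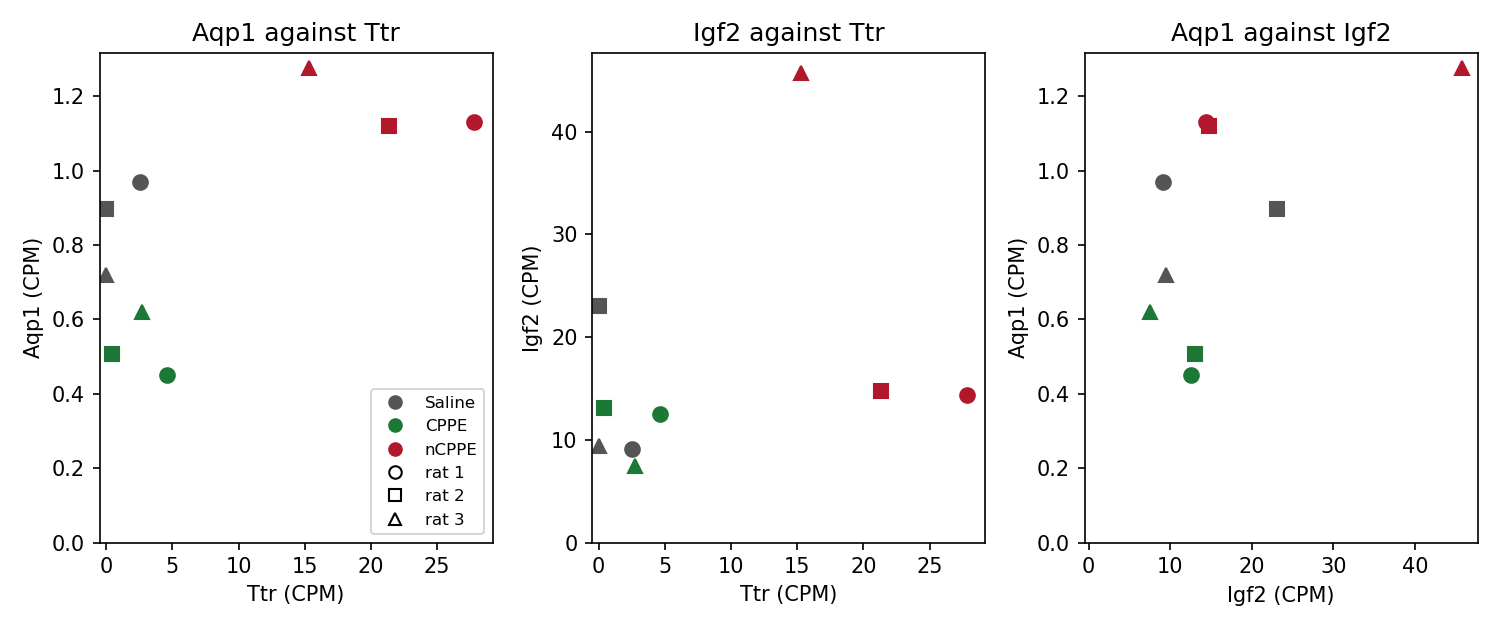
Levels of the genes plotted against each other in the 9 rats (CPM, linear axes), coloured by group, with symbols for rat number. The nCPPE rats lie to the right in Ttr with Aqp1 near 1.12 to 1.28 CPM, while in the middle plot the high Igf2 values belong to nCPPE 3 (45.8 CPM) and Saline 2 (23.0 CPM).

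Likeness of pattern was measured as Pearson's r of log2 CPM (prior count 2) over the 9 rats, among the members and the 13767 genes that averaged 1 CPM or more. These values are descriptions, they share the libraries and their scaling, and they include the group difference for which Ttr was chosen. With Ttr, r was 0.40 for Aqp1 and 0.19 for Igf2, and 28.0% and 41.5% of genes had a higher r with Ttr. Without Saline 2 r with Ttr was 0.56 for Aqp1 and 0.48 for Igf2, with 9.09% and 13.2% of genes higher. Leaving out CPPE 1 gave Aqp1 an r of 0.59 with Ttr, with 3.99% of genes higher, and leaving out nCPPE 3 gave 0.30 with 36.8% higher. Igf2 without nCPPE 3 was at -0.13, with 54.2% of genes higher. By Spearman's rho of CPM over all 9 rats, in place of Pearson's r, Aqp1 was at 0.51 (3.68% of genes higher) and Igf2 at 0.28 (15.8% higher). With group means removed, a setting chosen after the values were seen, the r of Aqp1 and Igf2 with Ttr were 0.35 and -0.41. Between Igf2 and Aqp1 r was 0.53, and 0.29 without nCPPE 3.

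The genes most like each member are given by identifier, as no names could be paired. The gene most like Ttr was ENSRNOG00000032112 (r = 0.92), at 17.4 to 18.1 CPM in nCPPE rats and 10.4 to 16.1 CPM in Saline rats, with CPPE 1 at 17.4 CPM. It was followed by ENSRNOG00000024838 (r = 0.88), at 1.02 to 1.41 CPM in nCPPE and 0.645 to 1.21 CPM in Saline rats. In both genes nCPPE and CPPE rats overlapped, unlike in Ttr. The gene most like Igf2 was ENSRNOG00000003183 (r = 0.97), which had 9.98 CPM in nCPPE 3 and 5.09 CPM in Saline 2 against 1.11 to 2.25 CPM in the other rats. ENSRNOG00000037793 (r = 0.96) was likewise highest in nCPPE 3 (78.8 CPM) and Saline 2 (60.2 CPM), with 37.1 to 49.3 CPM elsewhere. Both shared with Igf2 the same pair of leading rats. For Aqp1 the nearest genes were ENSRNOG00000028585 (r = 0.91), at 44.5 to 49.9 CPM over all rats, and ENSRNOG00000036917 (r = 0.88), at 15.5 to 19.8 CPM. Their ranges across rats were narrow beside the 2.83-fold range of Aqp1.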

How the data were processed

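The authors deposited raw read counts per Ensembl gene, 1 file for each of 4 technical replicates of 9 rats (36 files). Libraries came from 300 ng of total RNA with a stranded kit, per the labels' protocols. The submitters' processing notes name bcl2fastq 2.18.0.12, STAR and HTSeq 0.5.3. The STAR version, build, annotation and strand setting are not stated in them, so counts of overlapping genes are uncertain.

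Technical replicates were summed per rat. The replicates are separate rats, per the labels. edgeR 4.0.16 (R 4.3.3; filterByExpr, TMM, glmQLFit, glmQLFTest, group as the sole factor, all 9 rats) tested 15555 genes, with Benjamini-Hochberg adjustment and a threshold of 0.05. Standard errors are the log2 difference over the square root of F. DESeq2 1.42.0, limma 3.58.1, other scalings and filters, single technical replicates, a replicate block and each rat left out were alternatives. The edgeR procedure was tested on simulated data.

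The reference table (GRCr8) held 0 Ensembl identifiers, so marker lists written by symbol could not be applied. Named genes were the members, the 2 genes most like each, and genes identified as named after their values were seen. Members and lists were chosen with earlier results of these data known.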

Additional observations from a re-analysis of the deposited data

How the results depend on the processing

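Aqp1 and Igf2 did not pass the threshold in any comparison under any alternative that gave an adjusted p. The lowest adjusted p was 0.534 for Aqp1, for CPPE against Saline without Saline 3, and 0.615 for Igf2, for nCPPE against Saline by limma-voom. Aqp1 kept its direction throughout (log2 differences of 0.33 to 0.55 for nCPPE against Saline, 1.06 to 1.61 for nCPPE against CPPE and -1.07 to -0.61 for CPPE against Saline). It was too low to be tested with a mean of at least 1 CPM required or with technical replicate a, b or d alone. Igf2 ranged over 0.07 to 1.43 for nCPPE against Saline and 0.40 to 1.45 for nCPPE against CPPE with rats left out. For CPPE against Saline it ranged from -0.55 to 0.26 with rats left out, reversing without Saline 2, and was also reversed by limma-voom (0.12) and by DESeq2 without Saline 2 (0.25). All of these reversals left out Saline 2 or, by limma-voom, gave it a weight of 0.030, the lowest of all rats. The Saline mean of Igf2 was 13.9 CPM with Saline 2 and 9.27 CPM without it, against 11.0 CPM in CPPE rats. Why Saline 2 stood apart was not tested.

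Ttr differences ranged over 4.07 to 12.4 (nCPPE against Saline), 2.55 to 3.80 (nCPPE against CPPE) and 0.86 to 9.34 (CPPE against Saline) with rats left out. By limma-voom they were 6.33, 3.32 and 3.00, and with the replicate block 5.73, 3.58 and 2.15. The highest first and last values with rats left out came without Saline 1, where the remaining Saline rats had 0 counts and the fitted value is no bound. Against a floor of 3 counts over both rats, the mean Ttr level was 399-fold higher in nCPPE and 47.9-fold higher in CPPE rats. These folds hold for that floor and leave out the spread of the nCPPE and CPPE means. The r of Igf2 with Ttr reversed to -0.13 without nCPPE 3 and reached 0.48 without Saline 2, while that of Aqp1 with Ttr ranged over 0.30 to 0.59 with rats left out.

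DESeq2 called 1 gene for nCPPE against Saline, 1 for nCPPE against CPPE and 0 for CPPE against Saline. Without Saline 2, an alternative chosen after seeing the data, it called 15, 1 and 12. Same-numbered rats showed no clear pairing, with 2 of 9 correlations of their deviations above 0.1 (range -0.45 to 0.26). Differently numbered rats ranged from -0.33 to 0.36. Deviations from means of 3 rats cannot exclude a pairing. With the replicate block edgeR called 0 genes in each comparison, and the log2 difference of nCPPE against CPPE was 1.16 for Aqp1 and 1.10 for Igf2. Aqp1, with 14 to 40 counts a rat, is limited by counting error.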
